A study of Mus musculus with 4 samples.

Results

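The aryl hydrocarbon receptor, its DNA-binding partner, a pair of feedback repressors and 3 enzymes from its classical target set were followed across 4 libraries of cultured mouse mammary cells. The 7 genes, Ahr, Arnt, Ahrr, Cyp1a1, Cyp1b1, Tiparp and Aldh3a1, were found by symbol among the 54446 genes of the deposited expression table, and all 7 had a value above 0 in all 4 libraries. They were chosen from their baicalin responses in these same libraries, so their own changes are given as a description and support nothing. The cells came from the mammary gland of wild type C57BL/6 mice, were separated by flow sorting into fractions labelled basal and luminal, and were grown in growth factor-reduced Matrigel. The medium held either 100 μM baicalin, a plant flavonoid glucuronide, or its solvent DMSO. The age of the mice and the number pooled for a library are not in the labels. For primary cells in general the authors name virgin females within a range of weeks of age, or females at other stages. They do not tie these to the libraries. Each of the 4 combinations of label and treatment is 1 library, so there are no replicates, no test between conditions was made, and every comparison is between 2 libraries.

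AHR is a ligand-activated transcription factor that waits in the cytoplasm in a complex with HSP90. Planar aromatic compounds, tryptophan metabolites and a range of plant flavonoids can bind it, after which it enters the nucleus, pairs with ARNT and binds response elements with the core GCGTG. Its best-known targets are the cytochrome P450 genes of family 1, which oxidise the compounds that activate it, and the repressors AHRR and TIPARP, which limit its action. In the breast the receptor is known for carcinogen metabolism and for crosstalk with the oestrogen receptor.

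Values are FPKM, which count sequenced fragments relative to exon length and to library depth. Depth was read from low values, which are whole multiples of what 1 fragment is worth once exon length is taken into account, and came to 19356056 to 20648783 fragments a library. A single fragment per kilobase then stood for 0.0484 to 0.0517 FPKM. The 95% intervals below come from these fragments and cover counting error only. The cell labels went against marker genes. All 10 basal markers measured, among them keratins and contractile genes of the myoepithelium, were higher in the luminal-labelled than in the basal-labelled DMSO library, and 10 of 12 luminal markers were lower there. Summed FPKM of the basal markers was 1684 in the basal-labelled and 5119 in the luminal-labelled DMSO library, and that of the luminal markers was 4297 and 1238. The libraries are therefore called by their labels only.

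Promoter windows show where the receptor's core motif lies close to the transcription start in 4 of the genes it is known to regulate. Sequence farther upstream was not searched. Each window runs from 250 bases before the RefSeq transcription start to 50 bases of transcript, on the strand of the gene, and the capitals mark GCGTG or its reverse complement CACGC. Build GRCm38.p6 places them at chr13:74292282-74292581 on the minus strand for Ahrr, chr9:57697363-57697662 on the plus strand for Cyp1a1, chr17:79715012-79715311 on the minus strand for Cyp1b1 and chr3:65528197-65528496 on the plus strand for Tiparp.
Ahrr: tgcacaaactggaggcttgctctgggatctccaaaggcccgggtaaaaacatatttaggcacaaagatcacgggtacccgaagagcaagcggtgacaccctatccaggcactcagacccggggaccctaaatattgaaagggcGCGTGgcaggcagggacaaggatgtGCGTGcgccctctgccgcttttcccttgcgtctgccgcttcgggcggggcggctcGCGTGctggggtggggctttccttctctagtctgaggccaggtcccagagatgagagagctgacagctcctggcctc
Cyp1a1: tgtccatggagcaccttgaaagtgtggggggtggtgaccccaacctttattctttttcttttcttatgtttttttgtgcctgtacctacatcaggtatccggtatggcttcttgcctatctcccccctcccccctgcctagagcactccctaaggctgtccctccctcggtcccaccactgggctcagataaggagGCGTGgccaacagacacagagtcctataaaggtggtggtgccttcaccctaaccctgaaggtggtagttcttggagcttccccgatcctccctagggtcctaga
Cyp1b1: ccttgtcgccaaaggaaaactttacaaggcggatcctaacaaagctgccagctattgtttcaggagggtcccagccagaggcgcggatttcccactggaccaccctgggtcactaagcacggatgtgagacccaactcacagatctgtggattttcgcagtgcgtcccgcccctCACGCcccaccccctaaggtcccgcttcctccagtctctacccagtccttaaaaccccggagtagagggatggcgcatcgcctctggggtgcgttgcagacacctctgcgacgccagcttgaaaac
Tiparp: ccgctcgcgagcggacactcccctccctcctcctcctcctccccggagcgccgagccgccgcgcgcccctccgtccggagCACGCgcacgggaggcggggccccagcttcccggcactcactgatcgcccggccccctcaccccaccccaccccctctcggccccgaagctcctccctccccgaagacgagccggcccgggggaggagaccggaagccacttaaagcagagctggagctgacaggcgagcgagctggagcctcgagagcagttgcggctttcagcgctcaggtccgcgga

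Windows were found for 5 of the 7 genes, the 4 above and Arnt, and all 5 held GCGTG on either strand, against 32.4% of the 32851 windows of all genes. The Ahrr window held 3 copies, a number that 3.91% of all windows reached. Counted from the transcription start as 0, these copies began at -107, -82 and -27. The other windows held 1 copy each, at -54 in Cyp1a1, -76 in Cyp1b1, -170 in Tiparp and -29 in Arnt. The longer form TNGCGTG, which contains GCGTG, was found in the Ahrr window alone, against 5.07% of all windows. The hypoxia element core ACGTG was in none of the 5, against 19.6% of all. The antioxidant element core TGACNNNGC was in 1 of them, that of Arnt, against 12.4% of all. G and C made up between 54% of the window, in Cyp1a1, and 73.7%, in Tiparp, while the median over all windows was 52.7%. A match describes letters in this window and is not a measured binding site.

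**Figure D1:**
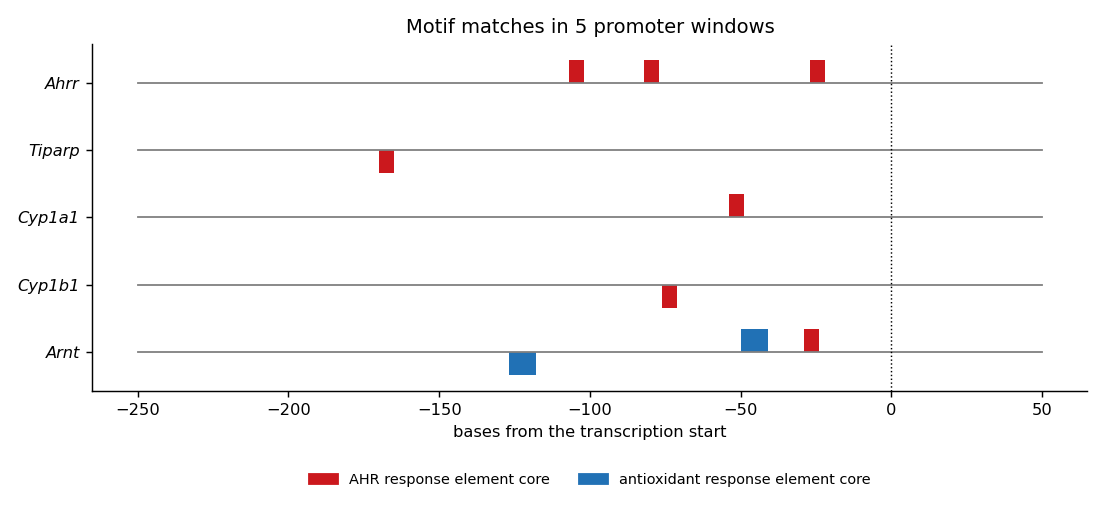
Motif matches along the promoter windows of 5 genes, with the distance from the RefSeq transcription start in bases on the x axis and 1 line per gene. Red blocks mark GCGTG and blue blocks TGACNNNGC, above the line for the strand of the gene and below it for the other strand; Ahrr carries 3 red blocks and the other genes 1 each.

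The receptor itself was higher with baicalin under both labels. Ahr (ENSMUSG00000019256, chr12:35497974-35535038 on the minus strand of GRCm38) had 12.2 FPKM in the basal-labelled DMSO library, 17.6 in the basal-labelled baicalin library, 8.92 in the luminal-labelled DMSO library and 16.5 in the luminal-labelled baicalin library. Both baicalin libraries lay above both DMSO libraries. The ratio of baicalin to DMSO was 1.44 (95% interval 1.35 to 1.54) under the basal label and 1.85 (1.72 to 2.0) under the luminal label. Its exons overlap those of Gm48236 on the opposite strand, which had at most 0.121 FPKM.

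Arnt (ENSMUSG00000015522, chr3:95434388-95497240, plus strand), the partner without which the receptor does not bind its elements, was nearly level. It had 10.2 FPKM with DMSO and 10.3 with baicalin under the basal label, and 11.4 and 9.87 under the luminal label. The ratio was 1.01 (0.945 to 1.08) under the basal label and 0.869 (0.812 to 0.930) under the luminal label. It was the only 1 of the 7 genes that was lower with baicalin under a label.

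The repressors of the receptor were both higher with baicalin. Ahrr (ENSMUSG00000021575, chr13:74211118-74292331, minus strand) encodes a repressor that competes with AHR for ARNT. It was low in all 4 libraries, with 0.203 FPKM (38 fragments) in the basal-labelled DMSO library, 0.809 (155 fragments) in the basal-labelled baicalin library, 0.153 (28 fragments) in the luminal-labelled DMSO library and 1.21 (236 fragments) in the luminal-labelled baicalin library. Its ratio was 3.99 (2.78 to 5.85) under the basal label and 7.90 (5.33 to 12.1) under the luminal label.

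Tiparp (ENSMUSG00000034640, chr3:65528410-65555518, plus strand) encodes a mono-ADP-ribosyltransferase that modifies AHR and dampens its activity. It had 29.8 FPKM with DMSO and 62.9 with baicalin under the basal label, and 24.5 and 56.2 under the luminal label. The ratios, 2.11 (2.01 to 2.21) and 2.29 (2.18 to 2.42), were the closest between labels among the 6 genes that were higher under both. Its exons overlap those of 4931440P22Rik on the opposite strand, which had at most 0.360 FPKM.

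Among the enzymes, Cyp1a1 showed the largest ratios and the lowest DMSO levels. Cyp1a1 (ENSMUSG00000032315, chr9:57687928-57703824, plus strand) encodes a P450 that hydroxylates polycyclic aromatic compounds and is widely read as the sign of AHR activity. It had 0.108 FPKM (6 fragments) in the basal-labelled DMSO library and 1.72 (97 fragments) with baicalin. In the luminal-labelled libraries it had 0.0741 FPKM (4 fragments) and 4.57 (263 fragments). Its ratio was 15.8 (7.01 to 44.2) under the basal label and 61.7 (23.8 to 228) under the luminal label, with intervals this wide because so few fragments lay behind the DMSO values. Cyp1a2, its neighbour in the P450 family and chiefly a liver enzyme, was listed at 0 in all 4 libraries, where 3 fragments, the limit that a count of 0 allows, would have been worth 0.0722 to 0.0770 FPKM.

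Cyp1b1 (ENSMUSG00000024087, chr17:79701537-79715061, minus strand), a P450 found outside the liver that hydroxylates oestradiol and procarcinogens, had the highest level of the 7 in each library. It had 156 FPKM with DMSO and 465 with baicalin under the basal label, and 68.4 and 253 under the luminal label. The ratios were 2.98 (2.93 to 3.03) and 3.70 (3.60 to 3.79). Per kilobase, Cyp1b1 stood far above Cyp1a1 in all 4 libraries, while the ratio of Cyp1a1 was the larger under both labels.

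Aldh3a1 (ENSMUSG00000019102, chr11:61207537-61218421, plus strand) encodes an aldehyde dehydrogenase that clears aldehydes from lipid peroxidation. It had 65.7 FPKM with DMSO and 254 with baicalin under the basal label, and 24.2 and 206 under the luminal label. The ratios were 3.86 (3.69 to 4.03) and 8.48 (7.92 to 9.09). On the scale log2((baicalin FPKM + 1)/(DMSO FPKM + 1)), the change of Aldh3a1 was 1.93 under the basal label and 3.03 under the luminal label, the largest among the 7 genes in each.

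**Figure D2:**
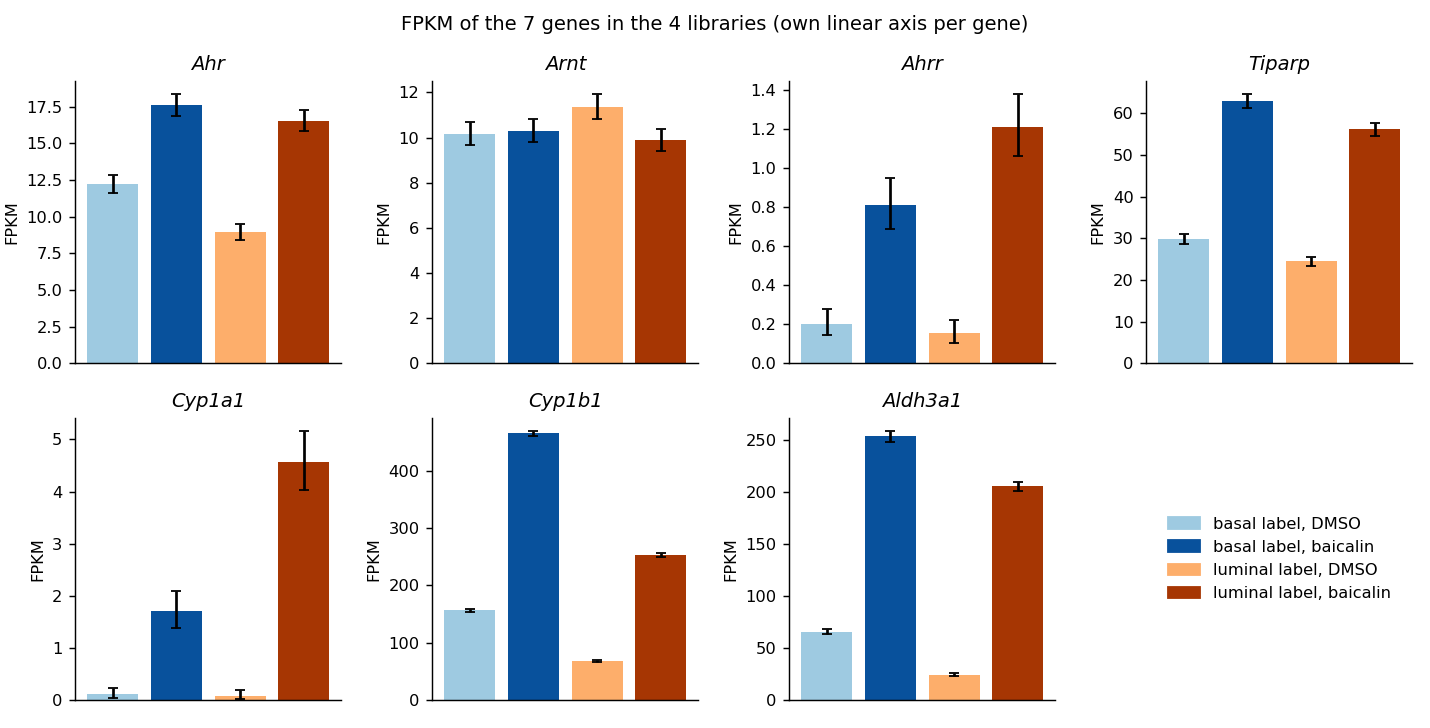
FPKM of each of the 7 genes in the 4 libraries, each gene on its own linear axis, with bars for the libraries and whiskers for the 95% counting interval. The baicalin bars stand above the DMSO bars of the same label for all genes but Arnt, whose bars lie between 9.87 and 11.4 FPKM.

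**Figure D3:**
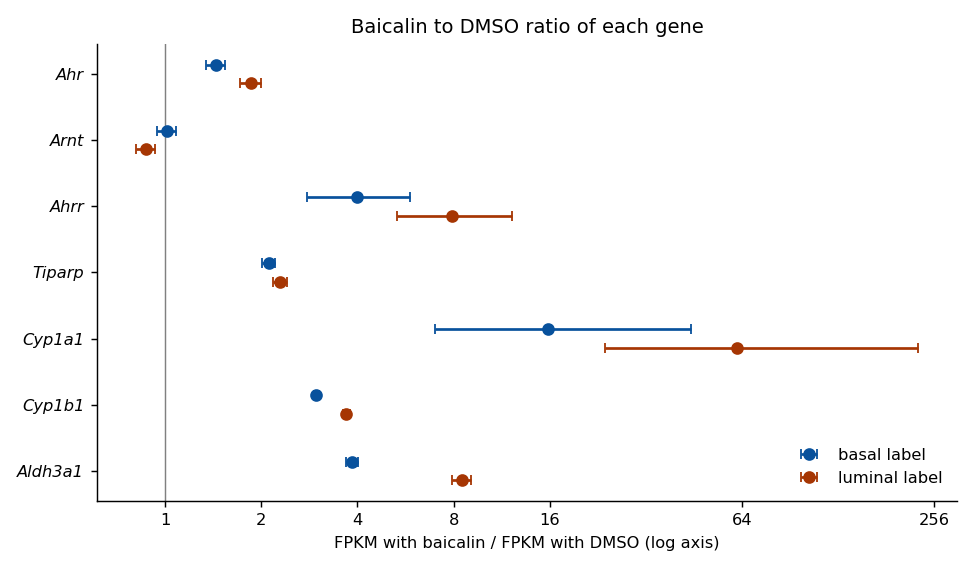
Ratio of FPKM with baicalin to FPKM with DMSO for each gene on a log axis, with 1 point per cell label and bars for the 95% counting interval. The luminal-labelled ratio lies right of the basal-labelled ratio for 6 genes and left of it for Arnt, and the bars of Cyp1a1 are the widest.

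On the log2(FPKM + 1) scale, which understates changes of low genes, 4 of the 7 genes were higher by more than 1 under each label, where 2.15% of the 17787 genes above 0 in all libraries were higher by more than 1 under the basal label and 2.37% under the luminal label. The 4 were Aldh3a1, Cyp1b1, Cyp1a1 and Tiparp in both. None of the 7 was lower by more than 1, against 3.33% of all genes under the basal label and 1.59% under the luminal label. Since the genes were selected on these changes, nothing is read from the counts. The change was 0.49 and 0.82 for Ahr under the basal and luminal labels, 0.59 and 0.94 for Ahrr, and 0.02 and -0.19 for Arnt. Ordered from the highest change among all 17787 genes, Aldh3a1 stood at 48 under the basal label and 8 under the luminal label, Cyp1a1 at 182 and 32, and Cyp1b1 at 102 and 77. Ahr stood at 1783 and 636.

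The order of the 7 levels was the same in both baicalin libraries and differed between the DMSO libraries. With baicalin it ran Cyp1b1, Aldh3a1, Tiparp, Ahr, Arnt, Cyp1a1 and Ahrr, and no neighbours overlapped in their counting intervals. In the basal-labelled DMSO library it ran Cyp1b1, Aldh3a1, Tiparp, Ahr, Arnt, Ahrr and Cyp1a1, where the intervals of Ahrr and Cyp1a1 overlapped. In the luminal-labelled DMSO library Tiparp and Aldh3a1 overlapped, Arnt stood above Ahr, and Ahrr and Cyp1a1 overlapped. Cyp1a1 stood above Ahrr with baicalin under both labels.

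Without baicalin most of the 7 genes were lower in the luminal-labelled library. Cyp1b1 was 0.438 (0.426 to 0.450) and Aldh3a1 0.369 (0.341 to 0.398) of its basal-labelled level, and these were the 2 genes past -1 on the log2(FPKM + 1) scale, a size at which 3.86% of all genes were lower and 4.71% higher. Ahr was at 0.730 (0.675 to 0.791) and Tiparp at 0.822 (0.775 to 0.871). Arnt was slightly above, at 1.12 (1.04 to 1.20). For Ahrr the ratio was 0.756 (0.447 to 1.26) and for Cyp1a1 0.684 (0.142 to 2.88), so a difference was not detectable at this depth. In these bulk libraries, fewer cells that express a gene and less RNA per cell cannot be told apart.

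With baicalin the ratio between labels was nearer to 1 for 5 of the genes. The luminal-labelled level of Ahr was 0.941 (0.886 to 0.999) of the basal-labelled one, that of Aldh3a1 0.810 (0.787 to 0.834) and that of Tiparp 0.894 (0.860 to 0.929). Cyp1b1 was at 0.544. Arnt was at 0.959 (0.895 to 1.03), an interval that spans 1. Cyp1a1 and Ahrr, for which no difference between labels was detectable with DMSO, were higher in the luminal-labelled baicalin library, at 2.66 (2.10 to 3.40) and 1.5 (1.22 to 1.84) times the basal-labelled level.

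Dividing the luminal-labelled ratio by the basal-labelled ratio gave 3.90 for Cyp1a1, 2.20 for Aldh3a1, 1.98 for Ahrr, 1.29 for Ahr, 1.24 for Cyp1b1, 1.09 for Tiparp and 0.858 for Arnt. On the log2 scale without a pseudocount these differences were 1.96 with a counting error of 0.95 for Cyp1a1, 1.14 with 0.060 for Aldh3a1 and 0.12 with 0.051 for Tiparp. Whether the response differs between labels was not tested, because the spread between replicates is unknown. These differences share the DMSO libraries with the comparison of labels above.

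**Figure D4:**
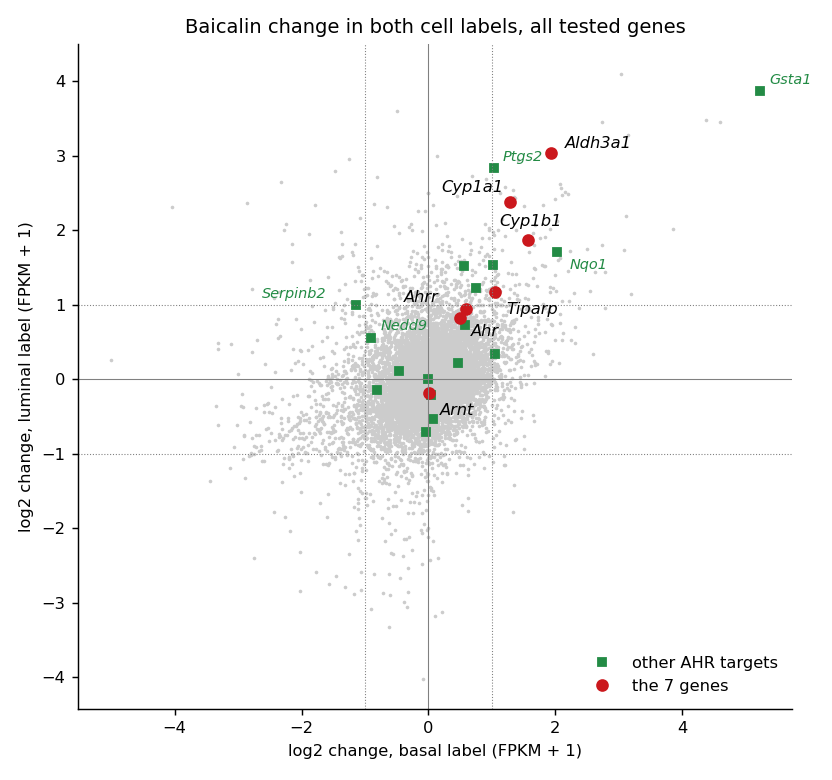
Change with baicalin on the log2(FPKM + 1) scale under the basal label (x axis) and the luminal label (y axis) for the 17787 genes in grey, with the 7 genes as red circles, other AHR targets as green squares and dotted lines at 1 and -1. Aldh3a1, Cyp1a1, Cyp1b1 and Tiparp lie beyond 1 on both axes, Ahr and Ahrr lie between 0 and 1 on both, and Arnt lies near the centre.

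Further genes known as AHR targets, and the lists that follow, were gathered with earlier results of these data known. Their counts and medians are therefore a description and support nothing about the 7 genes. The list of further targets held 19 genes, of which 17 were above 0 in all libraries. With baicalin, 11 were higher and 6 lower under the basal label, and 13 were higher and 4 lower under the luminal label. The median change was 0.47 and 0.56, and 0.08 and 0.35 with no filter on low values. The median of all genes was 0.01 and -0.02. By more than 1, 5 were higher and 1 was lower under the basal label, and 6 were higher and none lower under the luminal label. Of all genes, 2.15% were higher and 3.33% lower by that size under the basal label, and 2.37% and 1.59% under the luminal label. Nqo1, a quinone reductase that NRF2 also controls, had 32.3 FPKM with DMSO and 135 with baicalin under the basal label, and 143 and 470 under the luminal label. Ptgs2, the inducible cyclooxygenase, had 89.0 and 182 under the basal label and 7.14 and 57.3 under the luminal label.

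The remaining genes of that list past 1 included Gsta1, a glutathione transferase, which had 0.263 FPKM with DMSO and 46.4 with baicalin under the basal label. Under the luminal label Gsta1 had 0.054 FPKM, which is 1 fragment, and 14.4, a ratio of 267 (47.6 to 10589). Gsta1 is known to share near-identical stretches with Gsta2 and Gm3776, so its values are uncertain. Xdh, xanthine dehydrogenase, had 17.1 and 35.6 FPKM under the basal label and 9.23 and 28.5 under the luminal label. Socs2 was past 1 under the basal label, with 5.14 and 11.7 FPKM, while Ereg, with 4.09 and 13.7, and Slc7a5, with 16.9 and 40.8, were past it under the luminal label. Serpinb2, a protease inhibitor, had 2.70 and 0.672 FPKM under the basal label and 9.04 and 19.1 under the luminal label.

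Chaperones, coactivators and family relatives of the receptor stayed within the threshold, as did most genes. None of the 10 chaperones and coactivators was past 1 in either direction under either label, with medians of 0.09 and -0.05. Of 16 other members of the bHLH-PAS family, to which AHR and ARNT belong, 11 were above 0 throughout and none was past 1, with medians of 0.14 and -0.09. Of all genes, 2.15% were higher and 3.33% lower by that size under the basal label, and 2.37% and 1.59% under the luminal label. With so few of all genes past 1, nothing is read from these counts of 0. Hif1a, the oxygen-regulated partner of ARNT, had 24.2 and 35.7 FPKM under the basal label and 27.9 and 46.9 under the luminal label. Epas1, encoding another oxygen-regulated ARNT partner, had 7.65 and 9.68 FPKM under the basal label and 32.2 and 18.1 under the luminal label.

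Enzymes that make or remove tryptophan-derived ligands of AHR were mostly low, with 7 of 16 above 0 in all libraries. Ido1, Ido2 and Tdo2, which open the tryptophan ring to form kynurenine, were listed at 0 in all 4 libraries. Their limit at 3 fragments was at most 0.0849 FPKM. Of these 7, 6 were higher and 1 was lower with baicalin under the basal label, with a median of 0.13, and 1 was higher and 6 were lower under the luminal label, with a median of -0.08. Maoa, a monoamine oxidase, was the gene past 1, with 12.5 and 56.3 FPKM under the basal label, and the gene higher under the luminal label, with 15.9 and 27.6. Of all genes, 2.15% were higher by more than 1 under the basal label.

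ARNT is shared with the hypoxia factors and several AHR targets are shared with NRF2, so the lists of both pathways were set beside the 7 genes. Gsta1 and Nqo1 stand in both the AHR and the NRF2 list. All 13 NRF2 targets were higher with baicalin under the basal label, 10 of them by more than 1, with a median of 1.81. Under the luminal label 12 were higher, 8 by more than 1, with a median of 1.70. Of all genes, 2.15% were higher by more than 1 under the basal label and 2.37% under the luminal label. Slc7a11, the cystine importer, had 2.73 and 76.4 FPKM under the basal label and 2.27 and 35.6 under the luminal label. Of 12 HIF targets, 9 were higher under the basal label, 3 of them by more than 1, with a median of 0.69. Under the luminal label 5 were higher, 2 of them by more than 1, with a median of -0.34. Vegfa, the endothelial growth factor, had 27.3 and 106.5 FPKM under the basal label and 17.7 and 75.1 under the luminal label. How much of the change in the 7 genes moves with either pathway was not tested.

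The relatives of Aldh3a1 and Tiparp were split in direction. With baicalin, 10 of the 18 further aldehyde dehydrogenases above 0 in all libraries were higher under the basal label and 9 under the luminal label, and the medians were 0.07 and -0.02. By more than 1, 2 were higher and 1 was lower under the basal label, and 2 were higher and none lower under the luminal label. Of all genes, 2.15% were higher and 3.33% lower by that size under the basal label, and 2.37% and 1.59% under the luminal label. Aldh1l2, a mitochondrial folate enzyme, had 1.44 FPKM with DMSO and 13.8 with baicalin under the basal label, a change of 2.60, and 10.8 and 13.9 under the luminal label. Aldh1a3, a retinaldehyde dehydrogenase, had 173 and 97.8 FPKM under the basal label and 46.4 and 163 under the luminal label. Aldh3a2, a fatty aldehyde dehydrogenase of the same subfamily, had 25.1 and 28.7 FPKM under the basal label and 9.92 and 12.8 under the luminal label. Of the 15 further PARP family genes, to which Tiparp belongs, none was higher by more than 1 under either label. With shares of all genes this small, nothing is read from that absence. The medians were -0.16 and -0.01, and 3 were lower by more than 1 under the basal label. These were Parp14, with 24.4 and 5.99 FPKM, Parp9, with 28.6 and 7.18, and Parp12, with 24.2 and 6.45. Of 12 genes tied to the other xenobiotic receptors 7 were above 0 throughout. With baicalin 4 of these were higher, 2 of them by more than 1, and 3 were lower under the basal label, with a median of 0.04. Under the luminal label 6 were higher, 1 of them by more than 1, and 1 was lower, with a median of 0.45. The shares of all genes higher by that size were 2.15% and 2.37%. Ephx1, an epoxide hydrolase with the largest change of this list under the basal label, had 50.4 and 169 FPKM there. It had 88.5 and 148 under the luminal label. Cyb5a was past 1 under both labels, with changes of 1.36 under the basal and 1.01 under the luminal label.

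**Figure D5:**
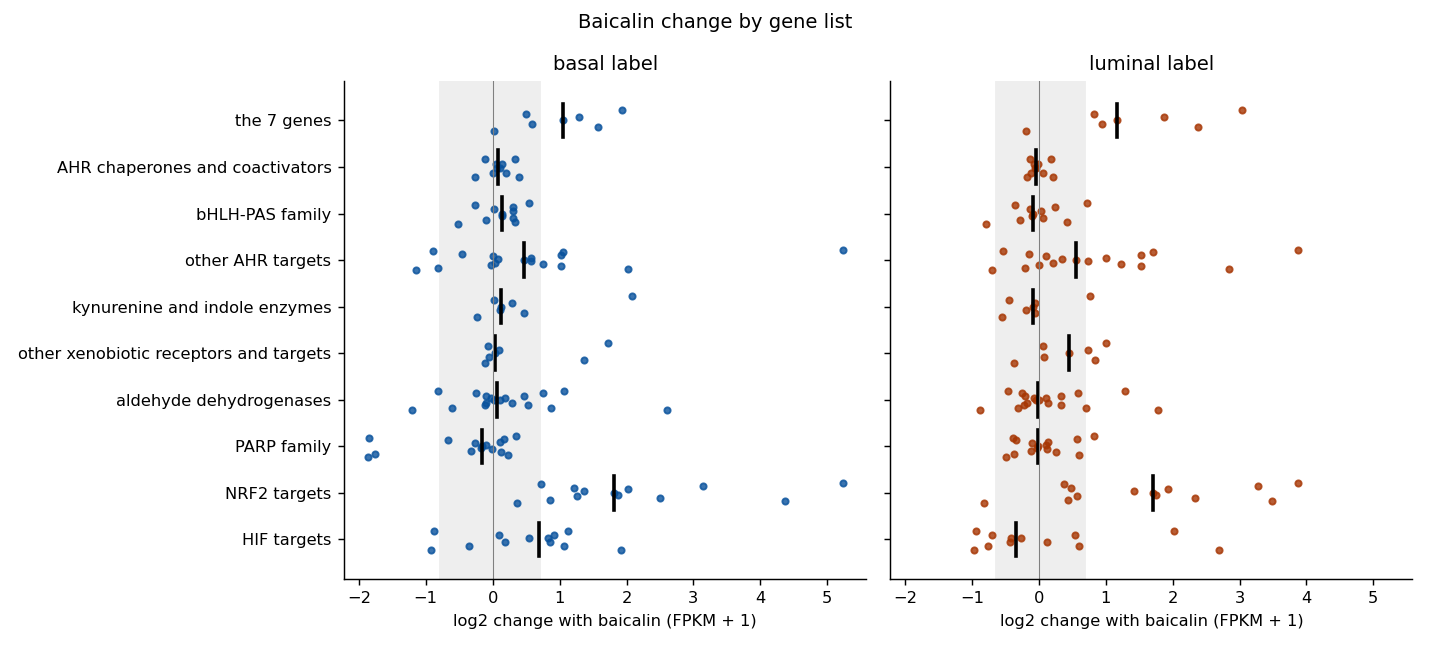
Change with baicalin on the log2(FPKM + 1) scale for the genes of 10 lists under the basal label (left) and the luminal label (right), with 1 point per gene, a black bar at the list median and a grey band from the 5th to the 95th percentile of all genes. The medians of the 7 genes, 1.05 and 1.17, and of the NRF2 targets, 1.81 and 1.70, lie beyond the band, and the other medians lie within it. The 7 genes were chosen on these changes and the lists with earlier results known, so nothing is read from this contrast.

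Genes with the most similar profile were sought among 8554 genes that reached 5 FPKM in a library, by the root mean square difference of centred log2(FPKM + 1) over the 4 libraries. Ahrr and Cyp1a1 stayed under 5 FPKM and were not compared. Nearest to Ahr was Fam214b, at 0.031. Nearest to Arnt was Nsmaf, at 0.0042. Nearest to Cyp1b1 was Crct1, at 0.071, nearest to Tiparp was Abcc1, at 0.068, and nearest to Aldh3a1 was Mal, at 0.16. Abcc1, a drug efflux transporter, had 13.9 and 31.5 FPKM under the basal label and 12.7 and 26.3 under the luminal label. With 4 points a likeness of profile is a description of these libraries.

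Cell type markers also differed between the baicalin and DMSO libraries. Summed FPKM of the 10 basal markers was 1684 with DMSO and 461 with baicalin under the basal label, where 9 of 10 were lower, and 5119 and 6131 under the luminal label, where 6 of 10 were lower. Summed FPKM of the 12 luminal markers was 4297 and 2944 under the basal label and 1238 and 1038 under the luminal label, and 10 of 12 were lower under each. Their part in the change of the 7 genes was not tested.

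Of 6 fibroblast markers, 5 were lower with baicalin under the basal label and 5 were higher under the luminal label. Their summed FPKM was 6.61 with DMSO and 2.60 with baicalin under the basal label, and 10.4 and 8.73 under the luminal label, where the lower sum came from Pdgfra, with 6.30 and 1.67 FPKM. Of 6 immune markers, 3 were above 0 in all libraries, of which 1 was higher and 2 were lower with baicalin under the basal label and 3 were higher under the luminal label. Their summed FPKM was 17.4 and 54.4 under the basal label and 5.95 and 17.7 under the luminal label. Cd68, a lysosomal protein of macrophages, made up most of the sum with baicalin, with 51.5 and 13.7 FPKM, and under the basal label Lyz2, a lysozyme, had 8.84 FPKM with DMSO and 2.17 with baicalin. Ptprc, the common leukocyte antigen, was at most 0.0138 FPKM in any library. Of 5 endothelial markers, 4 were higher with baicalin under the basal label and 5 under the luminal label, the highest at 1.34 FPKM.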

How the data were processed

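mRNA from 4 libraries of sorted and cultured mouse mammary cells was measured by sequencing, 1 library per cell label and treatment. Stranded libraries were made from oligo (dT)-selected RNA. The authors ran HISAT2 against GRCm38, then featureCounts with Ensembl release 94 genes, and deposited FPKM with 4 decimals. The submitters' processing notes also name Bowtie 0.12.2 and mm8, with no role. Whether counting used strand is not given in the sources used here, so overlapping antisense genes are uncertain.

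Exon lengths and positions came from GENCODE mouse release 21 and gave a length for 54409 genes. FPKM times length gave whole fragments, within 0.1, for 98.9% to 99.0% of values under 20 fragments, and for all libraries in 6 of the 7 genes, Cyp1b1 being the exception. A count test was not run, since each group has 1 library. Ratios carry exact Clopper-Pearson intervals and levels exact Poisson intervals, both at 95%. Changes were log2((FPKM + 1)/(FPKM + 1)) over the 17787 genes above 0 in all 4 libraries, with a threshold of 1. Promoter windows came from RefSeq on GRCm38.p6. Near-identical copies of the 7 genes were sought with blastn at 95% identity over 200 bases.

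The 7 genes and the 15 gene lists were chosen with earlier results of these data known. Genes named are the 7, the 3 of each list with the largest change among those reaching 5 FPKM in a library, and the nearest profiles. Some genes within the rule are left out. Xdh, Socs2, Ereg, Slc7a5, Serpinb2, Aldh3a2, Cd68, Lyz2, Pdgfra, Ptprc and the genes at 0 were named after their values were seen. Alternatives were a pseudocount of 0.1 or none, no filter, a filter at 1 or 5 FPKM in a library, TPM scaling, centring on the median ratio and a threshold of 2. The computation was tested on simulated data. Computation used scipy 1.17.1, pandas 2.3.3 and numpy 2.4.6 in Python 3.11.15, and figures matplotlib 3.10.9.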

Additional observations from a re-analysis of the deposited data

Results flagged for a closer look

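Among the genes named by rule, 10 had changes with baicalin of opposite sign under the 2 labels, each from 1 library a condition. The share of all genes with opposite signs is not given here, so nothing is read from this number. The difference was not tested. Given as the luminal-labelled minus the basal-labelled change on the log2(FPKM + 1) scale, it was -0.20 for Arnt (0.02 and -0.19 under the basal and luminal labels). It was 2.60 for Aldh1a3, a retinaldehyde dehydrogenase (-0.82 and 1.79), 1.38 for Aldh3b2 (-0.10 and 1.28), and 1.98 for Parp14 (-1.86 and 0.12). It was -1.39 for Bnip3 (1.12 and -0.27), -1.10 for Epas1 (0.30 and -0.79), -0.91 for Kyat1 (0.47 and -0.45), -0.51 for Ncoa1 (0.34 and -0.18), -0.21 for Nsmaf (0.02 and -0.20) and 0.56 for Por (-0.12 and 0.45). For Aldh1a3, Bnip3, Epas1, Kyat1, Ncoa1 and Por the ratio lay outside counting error of 1 under both labels. For Aldh3b2, Arnt, Nsmaf and Parp14 it did so under 1 label. Nsmaf was named for its likeness to the profile of Arnt, so its signs follow from that choice.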

How the results depend on the processing

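No paired analysis was possible because each group has 1 library and no replicate numbers pair them. An additive fit of label and treatment, which would take the difference in response between labels as its error, was not run. With a threshold of 2, 0 of the 7 genes were higher under the basal label and 2 under the luminal label. The members' median change was 1.57 with a pseudocount of 0.1, 1.57 with none and 1.16 with TPM under the basal label, and 1.88, 1.89 and 1.75 under the luminal label. Over all genes, a pseudocount of 0.1, no pseudocount, TPM and a threshold of 2 gave 1123, 1693, 696 and 41 genes higher and 1302, 2054, 1002 and 132 lower with baicalin under the basal label. Under the luminal label they gave 1052, 1559, 718 and 60 higher and 913, 1537, 578 and 46 lower. For luminal against basal label with DMSO they gave 2027, 2872, 1306 and 185 higher and 1467, 1926, 1279 and 150 lower. Of the 21 changes of the 7 genes over these 3 comparisons, 20 kept their sign with a pseudocount of 0.1, with none, with TPM and with centring. The exception was Arnt under the basal label, from 0.02 to -0.02 with TPM and just below 0 with centring. With a filter at 5 FPKM the median of the other AHR targets was 0.57 under the basal label and 0.87 under the luminal label. That of the ligand enzymes under the basal label was 1.27, against 0.13 in the main setting. It then rested on Maoa and Kyat1 alone. Without a pseudocount the bHLH-PAS median under the basal label was 0.34. The median of the genes tied to other xenobiotic receptors was 0.45 under the luminal label in the main setting. It was 1.03 there without a pseudocount and 0.07 with no filter. Under the basal label that median was 0.04 in the main setting and 0.70 with a filter at 5 FPKM. Ahrr was past the threshold under some settings, from 0.57 to 2.0 under the basal label and from 0.98 to 2.98 under the luminal label. Without replicates, the spread between cultures is unknown, and depth limits Cyp1a1 and Ahrr most, with 4 to 38 fragments in the DMSO libraries.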
